A study of Mus musculus with 9 samples.

Results

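The transcription factors Lbx1, Skor1, Lhx1, Lhx5, Gbx1, Sall3, Pax8 and Pax2, which belong to the programme of dorsal spinal neurons and in large part to its inhibitory branch, were followed through the dorsal, intermediate and ventral spinal cord. Members were all probe sets of an Affymetrix mouse array whose platform gene symbol was one of these 8 genes. The rule found 12 probe sets of 7 genes among 45037 probe sets, and 11 of the 12 entered the tests, the remaining one being at the lowest value of the table on every array. No probe set was matched to Pax2, which was not analysed here. The material was spinal cord of mice at postnatal day 6 of the GAD65-GFP genotype, a line carrying green fluorescent protein under the promoter of GAD65, an enzyme of GABA synthesis. The cords of 3 animals were each divided into dorsal, intermediate and ventral tissue, with 1 array per animal and region (9 arrays, n = 3 animals per region). All groups share age and genotype and differ by region alone. The labels name no sorting of cells and no sex, and the values are taken as those of whole pieces of tissue. The study concerns dystonia-associated genes in circuits of spinal GABAergic interneurons.

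As background, neurons of the dorsal horn arise from progenitors of the dorsal neural tube, and Lbx1, a homeodomain protein, marks a large class of them and is needed for their identity. Within that class, cells that keep Pax2, Pax8, Lhx1, Lhx5 or Gbx1 become inhibitory neurons using GABA or glycine, whereas cells with Tlx3 and Lmx1b become excitatory. Skor1, also called Corl1, is a nuclear co-repressor that binds Lbx1. Lhx1, Lhx5 and the Pax genes are also used by ventral inhibitory interneurons, so they are not dorsal markers in every setting.

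Values were read as log2 expression, and all fold changes rest on that reading. Array medians lay between 3.66 and 3.75, and 36.0% to 36.3% of each array was at the floor, meaning the lowest value of 2.15 or within 0.01 of it. Arrays of 1 region correlated at 0.998 to 0.9993 across probe sets, and no array stood apart from its region. Of 10 dorsal excitatory factors tested, 9 were higher in dorsal than in ventral pieces, against 22.7% of all probe sets tested. Their list was chosen with earlier results of these data known, so it is no separate check of the region labels. The motor neuron gene Prph was at the floor in all 3 dorsal pieces and averaged 9.41 ± 0.24 in ventral ones (SD, n = 3, limma adjusted p = 2.8e-05). The cholinergic markers Chat, Slc5a7 and Slc18a3 were nevertheless at the floor on all 9 arrays, ventral ones included. In tissue pieces, fewer cells of a type and less RNA per cell cannot be told apart.

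Most of these factors formed a gradient that was highest in dorsal and lowest in ventral cord. Lbx1, Skor1, Lhx1, Gbx1 and Sall3 were each higher in dorsal than in intermediate pieces and higher in intermediate than in ventral pieces, by every probe set that was above the floor. Pax8 was close to the floor throughout, and Lhx5 was low and differed little between regions. Among the 11 probe sets tested, 9 were higher and 0 lower in dorsal than in ventral pieces, where 22.7% of all 30305 probe sets tested were higher and 22.7% lower. Between dorsal and intermediate pieces 9 were higher and 1 lower, where 12.9% of all probe sets were higher and 11.6% lower. Between intermediate and ventral pieces 8 were higher and 0 lower, where 19% were higher and 20% lower. The median difference over the 11 probe sets was 2.63 for dorsal minus ventral, 1.15 for dorsal minus intermediate and 1.28 for intermediate minus ventral, against a median of 0 over all probe sets in each comparison. Tests were two-sided limma tests with the animal as a block, adjusted by Benjamini-Hochberg over all 30305 probe sets and called at 0.05. Called in either direction were 45.4% of all probe sets for dorsal minus ventral, 24.5% for dorsal minus intermediate and 39% for intermediate minus ventral. The comparisons share arrays with each other, so their counts are not separate evidence.

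**Figure D1:**
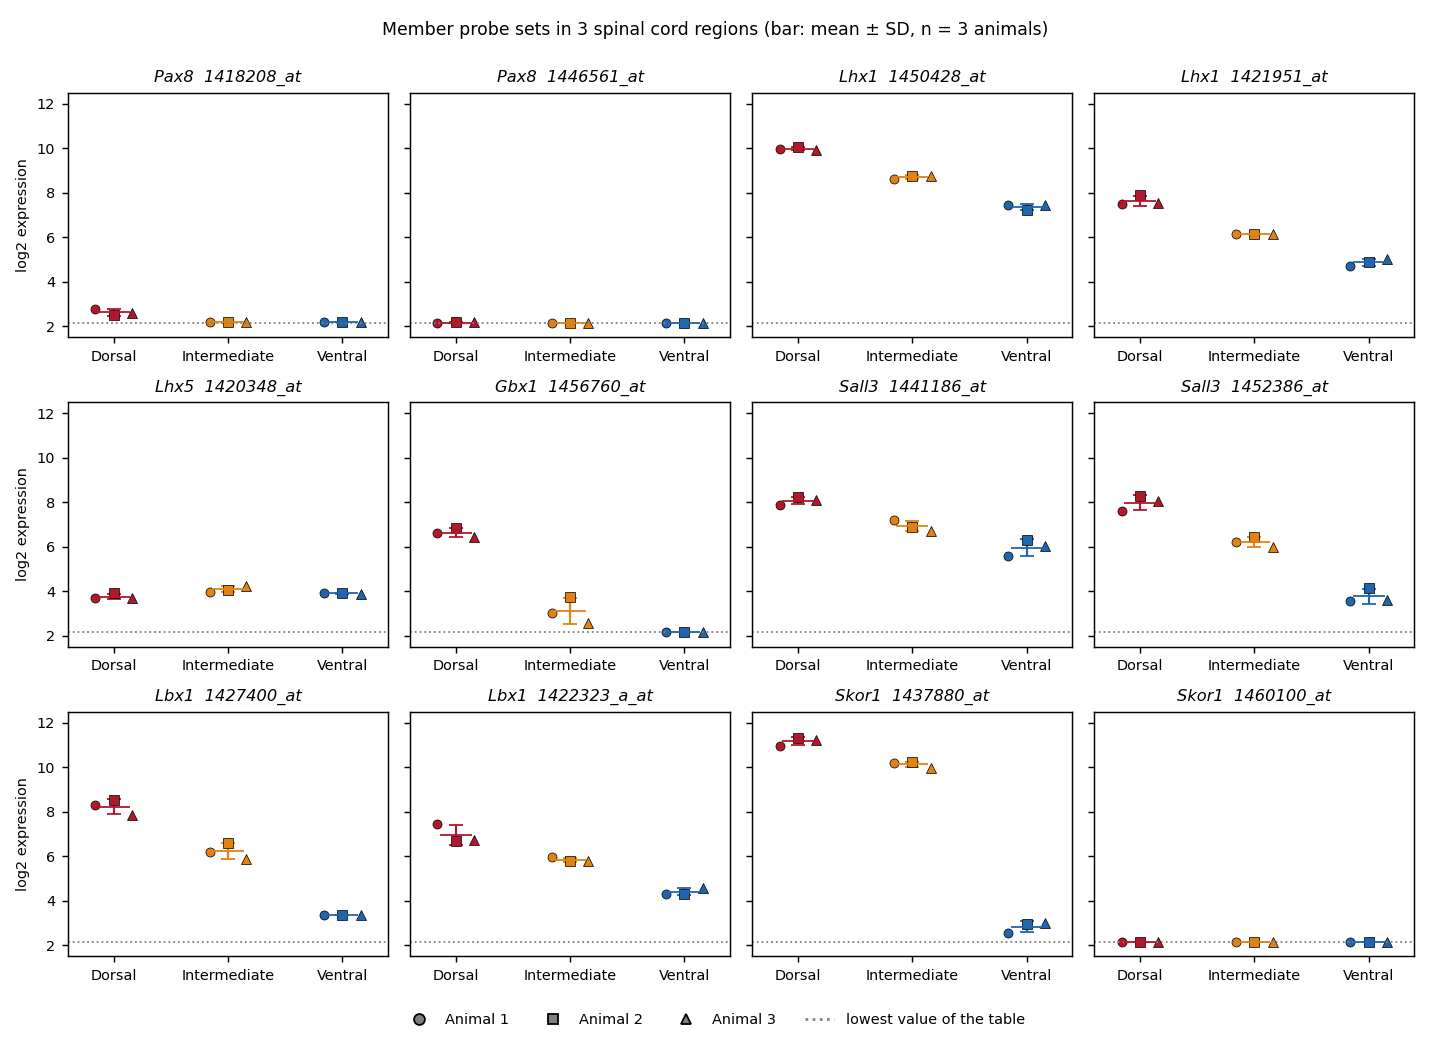
Log2 expression of the 12 member probe sets in dorsal, intermediate and ventral pieces, with a symbol for each animal, the mean as a bar, the SD as whiskers (n = 3) and the lowest value of the table as a dotted line. By 1437880_at, Skor1 lies at 9.98 or above in dorsal and intermediate pieces and at 2.98 or below in ventral ones, while Lhx1 declines in even steps and Gbx1 reaches the floor in ventral pieces.

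Lbx1 was measured by 2 probe sets. In animals 1, 2 and 3, the brighter one (1427400_at) read 8.29, 8.52 and 7.87 in dorsal pieces, 6.20, 6.60 and 5.89 in intermediate pieces, and 3.35 in each ventral piece. The regions did not overlap, and the identical ventral values leave the ventral spread unmeasured. Lbx1 by this probe set was 3.99-fold higher in dorsal than in intermediate pieces (2.00 ± 0.15 on the log2 scale, SE, limma adjusted p = 0.00182) and 29.4-fold higher in dorsal than in ventral pieces (4.88 ± 0.15, limma adjusted p = 6.79e-05). The intermediate excess over ventral was 7.36-fold (limma adjusted p = 0.000399). The dimmer probe set of Lbx1 (1422323_a_at) read 7.46, 6.69 and 6.71 in dorsal pieces, 5.95, 5.77 and 5.77 in intermediate pieces, and 4.32, 4.32 and 4.58 in ventral pieces. It ran the same way with smaller differences, of 1.12 ± 0.20 over intermediate (limma adjusted p = 0.019) and 2.55 ± 0.20 over ventral (limma adjusted p = 0.000636). The size of the Lbx1 gradient therefore depended on the probe set, and its direction did not.

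Skor1, the Lbx1-binding co-repressor, showed the widest range of the members. Its informative probe set (1437880_at) read 10.98, 11.34 and 11.23 in dorsal pieces, 10.18, 10.22 and 9.98 in intermediate pieces, and 2.56, 2.96 and 2.98 in ventral pieces. All dorsal and intermediate values were far above all ventral ones. Skor1 was 2.08-fold higher in dorsal than in intermediate pieces (1.06 ± 0.12, limma adjusted p = 0.00532), 326-fold higher in dorsal than in ventral pieces (8.35 ± 0.12, limma adjusted p = 3.29e-05) and 157-fold higher in intermediate than in ventral pieces (7.29 ± 0.12, limma adjusted p = 9.84e-05). Ventral values near the floor make the last 2 folds less certain in size than in direction. The other Skor1 probe set (1460100_at) was at the floor on all 9 arrays and gives no information on region.

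Within each animal, most of the Skor1 decline lay at the step between intermediate and ventral cord. Per animal, dorsal minus intermediate was 0.80 to 1.25 on the log2 scale, and intermediate minus ventral was 7.004 to 7.62. Lbx1 (1427400_at) had steps of 1.92 to 2.09 and 2.54 to 3.25 in the same animals. Whether the step sizes of Skor1 and Lbx1 differ was not tested.

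Lhx1, a LIM homeodomain factor of spinal inhibitory neurons, declined in nearly equal steps. Its brighter probe set (1450428_at) read 9.96, 10.08 and 9.94 in dorsal pieces, 8.61, 8.77 and 8.74 in intermediate pieces, and 7.44, 7.22 and 7.43 in ventral pieces. No region overlapped another. Lhx1 was 2.43-fold higher in dorsal than in intermediate pieces (1.28 ± 0.09, limma adjusted p = 0.00149), 6.18-fold higher in dorsal than in ventral pieces (2.63 ± 0.09, limma adjusted p = 8.05e-05) and 2.54-fold higher in intermediate than in ventral pieces (1.34 ± 0.09, limma adjusted p = 0.000625). The other probe set (1421951_at) read 7.48, 7.89 and 7.54 in dorsal pieces, 6.16 in each intermediate piece, and 4.72, 4.89 and 5.02 in ventral pieces. Its differences of 1.48 ± 0.11, 2.76 ± 0.11 and 1.28 ± 0.11, in the same order, lay close to those of the brighter one. Lhx1 thus stayed well above the floor in ventral pieces, where Gbx1 was at the floor.

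The promoters of Skor1 and Lhx1 are shown because these genes fell ventrally with unlike step sizes. Entries of the RefSeq promoter table (GRCm38.p6) were used for 3 of the 7 measured genes, these and Pax8. Each sequence runs from 250 bases before to 50 bases after a transcription start, 5′ to 3′ on the gene's strand. Capitals mark matches, on either strand, to the homeodomain core TAAT, the CCAAT box CCAAT, the GC box GGGCGG and the E-box CANNTG that basic helix-loop-helix proteins bind. The Skor1 window is chr9:63148912-63149211 and the Lhx1 window chr11:84525485-84525784, both on the minus strand.
Skor1: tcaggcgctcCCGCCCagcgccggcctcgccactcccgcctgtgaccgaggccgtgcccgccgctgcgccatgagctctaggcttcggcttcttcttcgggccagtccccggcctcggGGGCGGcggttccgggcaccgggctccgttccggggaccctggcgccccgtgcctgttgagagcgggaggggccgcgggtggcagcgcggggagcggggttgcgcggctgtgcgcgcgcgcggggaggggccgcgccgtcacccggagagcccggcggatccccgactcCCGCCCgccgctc
Lhx1: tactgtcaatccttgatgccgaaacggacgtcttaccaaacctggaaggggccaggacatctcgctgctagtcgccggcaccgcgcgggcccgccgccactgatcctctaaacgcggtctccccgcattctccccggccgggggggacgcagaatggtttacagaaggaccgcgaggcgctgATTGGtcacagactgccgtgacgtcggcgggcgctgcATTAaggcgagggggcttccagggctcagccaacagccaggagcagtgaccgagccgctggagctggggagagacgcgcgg
The Skor1 window, which belongs to the farthest upstream of 3 listed starts, has 3 GC boxes and a GC content of 79.3%, against a median of 52.7% over all 32851 promoters of this length. The windows of the other 2 Skor1 starts, which overlap each other, have 1 GC box each and a GC content of 65.3%. The Lhx1 window has a CCAAT box at position -68 and a homeodomain core at position -31, counted from the transcription start, with a GC content of 65.7%. Neither window has an E-box match. Over all promoters, 72.3% hold an E-box, 58.0% a homeodomain core, 37.4% a CCAAT box and 35.7% a GC box. These matches describe the letters in the windows and say nothing of binding.

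Gbx1, a homeobox factor of dorsal horn inhibitory neurons, was the member with the steepest decline between dorsal and intermediate cord. Its probe set (1456760_at) read 6.63, 6.825 and 6.46 in dorsal pieces and 3.03, 3.74 and 2.58 in intermediate pieces. All 3 ventral pieces were at the floor. Dorsal values stood apart from all others, and the intermediate values were low and scattered (3.12 ± 0.58, SD, n = 3). Gbx1 was 11.5-fold higher in dorsal than in intermediate pieces (3.52 ± 0.22, limma adjusted p = 0.00122) and at least 22.5-fold higher in dorsal than in ventral pieces (limma adjusted p = 0.000184). The excess of intermediate over ventral was at least 1.96-fold (limma adjusted p = 0.0247).

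Sall3, a zinc-finger factor of the Spalt family, was measured by 2 probe sets. The first (1441186_at) read 7.89, 8.24 and 8.10 in dorsal pieces, 7.19, 6.89 and 6.71 in intermediate pieces, and 5.56, 6.29 and 6.02 in ventral pieces. The second (1452386_at) read 7.59, 8.27 and 8.08 in dorsal pieces, 6.21, 6.45 and 5.98 in intermediate pieces, and 3.55, 4.14 and 3.59 in ventral pieces. Neither set of values overlapped between regions. Sall3 by the second probe set was 3.40-fold higher in dorsal than in intermediate pieces (1.77 ± 0.14, limma adjusted p = 0.00214) and 18.6-fold higher in dorsal than in ventral pieces (4.22 ± 0.14, limma adjusted p = 8.06e-05). By the first it was 2.21-fold (limma adjusted p = 0.0223) and 4.35-fold higher (2.12 ± 0.22, limma adjusted p = 0.00142). For intermediate minus ventral the second gave 2.45 ± 0.14 (limma adjusted p = 0.000483) and the first 0.98 ± 0.22 (limma adjusted p = 0.0228).

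Pax8, a paired-box factor that acts with Pax2, gave little signal. One probe set (1418208_at) read 2.78, 2.50 and 2.57 in dorsal pieces and 2.20 in each intermediate and ventral piece. It was 1.33-fold higher in dorsal pieces than in either other region (0.41 ± 0.06, limma adjusted p = 0.0122 over intermediate and 0.00565 over ventral), and the intermediate and ventral values were identical. The other Pax8 probe set (1446561_at) lay between 2.15 and 2.18 in dorsal pieces and at the floor in all others, and was not called in any comparison (limma adjusted p of at least 0.312). Both are so near the floor that a level of Pax8 was hardly detectable on these arrays.

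Lhx5, the closest relative of Lhx1, showed no gradient like that of Lhx1 at the low level measured. Its single probe set (1420348_at) read 3.68, 3.90 and 3.68 in dorsal pieces, 3.97, 4.07 and 4.22 in intermediate pieces, and 3.90, 3.90 and 3.89 in ventral pieces, all close to the array medians. Lhx5 was lower in dorsal than in intermediate pieces by -0.33 ± 0.08 (limma adjusted p = 0.0434). The differences of -0.14 ± 0.08 for dorsal minus ventral (limma adjusted p = 0.229) and 0.19 ± 0.08 for intermediate minus ventral (limma adjusted p = 0.135) did not pass. The contrast between Lhx5 and Lhx1 was not itself tested, and at so low a level a gradient of Lhx5 could be missed.

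**Figure D2:**
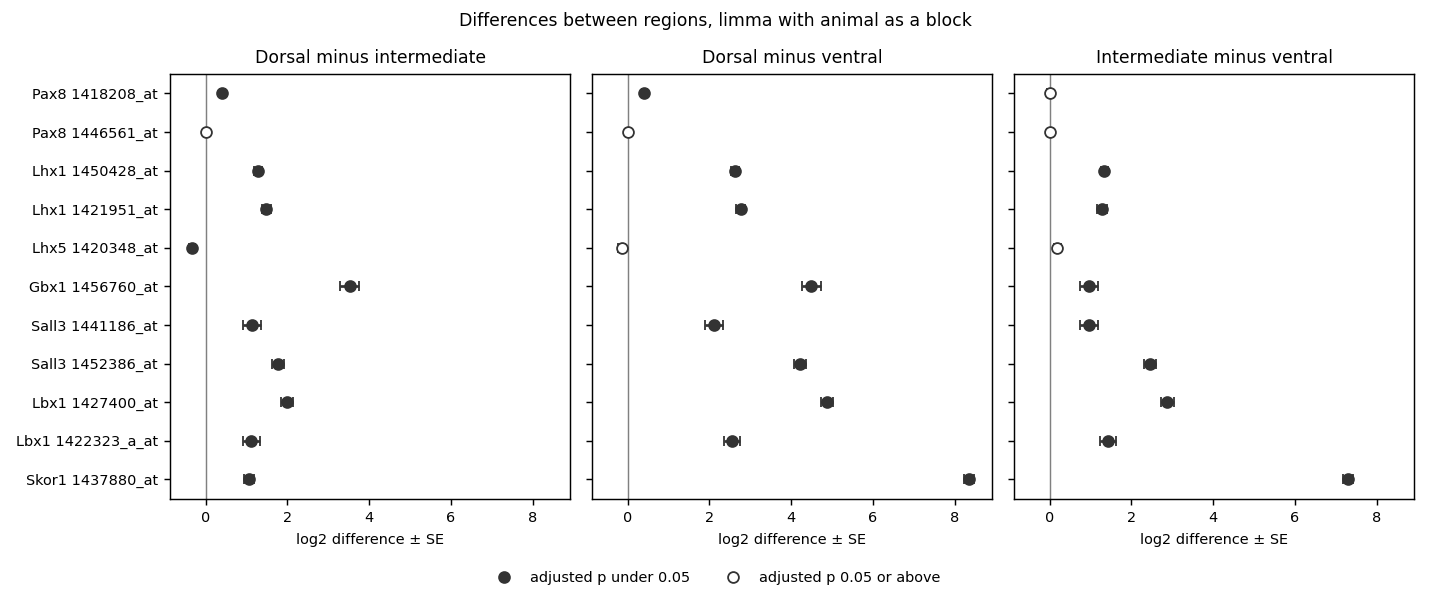
Differences of region means on the log2 scale, with SE from limma, for the 11 member probe sets tested; filled points passed an adjusted p of 0.05. For dorsal minus ventral they run from -0.14 for Lhx5 to 8.35 for Skor1, and the Skor1 point for intermediate minus ventral (7.29) lies far right of all other members.

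The number of animals limits these calls unequally. For dorsal minus ventral, leaving out any animal or any single array changed the call of 1 probe set, that of Pax8 (1418208_at) without animal 3 (limma adjusted p = 0.0806). For dorsal minus intermediate, the calls of Skor1 (limma adjusted p = 0.0938 without animal 2 and 0.066 without animal 3), Lhx1 1450428_at (0.0509 without animal 3), Sall3 1452386_at (0.056 without animal 2) and Lbx1 1427400_at (0.0585 without animal 1) were lost with an animal. The calls of Lhx1 1421951_at and Gbx1 were kept in all 12 such fits. Lbx1 1422323_a_at lost its call without animal 2 (limma adjusted p = 0.14), without animal 3 (0.12), without the dorsal array of animal 2 (0.0502) and without the intermediate array of animal 1 (0.0849), 2 (0.0635) or 3 (0.0807). Sall3 1441186_at lost it without animal 2 (limma adjusted p = 0.168) or 3 (0.21), without the dorsal array of animal 1 (0.0668), 2 (0.0798) or 3 (0.0921), without the intermediate array of animal 2 (0.083) or 3 (0.0901), and without the ventral array of animal 3 (0.052). Pax8 1418208_at lost it without animal 2 (limma adjusted p = 0.0731) or 3 (0.14) and without the intermediate array of animal 1 (0.0556) or 3 (0.0536). The lower value of Lhx5 in dorsal pieces was called in only 1 of the 12 fits, that without the dorsal array of animal 2 (limma adjusted p in the other 11 up to 0.204). For intermediate minus ventral, calls were lost for Gbx1 in all fits except those without the intermediate array of animal 2 or 3 or the ventral array of animal 3 (limma adjusted p up to 0.186), for Sall3 1441186_at without animal 2 (0.105) or 3 (0.131), without the dorsal array of animal 2 (0.0518) or 3 (0.0511) or the ventral array of animal 1 (0.0595) or 3 (0.0649), and for Lbx1 1422323_a_at without animal 2 (0.0799) or 3 (0.054). The sign of every called difference was the same in all these fits.

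Genes that mark the same neurons moved in more varied ways. Of 11 dorsal inhibitory neuron genes tested, 7 were higher and 1 lower in dorsal than in ventral pieces, with a median difference of 2.25. The shares over all probe sets were 22.7% higher and 22.7% lower. Npy, the neuropeptide Y precursor, was 31.8-fold higher (4.99 ± 0.05), Kcnip2, a potassium channel-interacting protein, 16.9-fold (4.08 ± 0.07), Pdyn, the dynorphin precursor, 9.33-fold (3.22 ± 0.07) and Gal, the galanin precursor, 7.59-fold higher (2.92 ± 0.08), all with limma adjusted p of at most 6e-05. Against shares of 12.9% higher and 11.6% lower over all probe sets, 6 were higher and 4 lower in dorsal than in intermediate pieces. The lower ones included the AP-2 factors Tfap2b (-4.38 ± 0.17, limma adjusted p = 0.000503) and Tfap2a (-2.19 ± 0.24, limma adjusted p = 0.00448), whose region means were highest in intermediate pieces. The mean of Lhx5 was also highest there, but by little, and its excess over ventral pieces was not called (limma adjusted p = 0.135). Between intermediate and ventral pieces 8 were higher and 0 lower.

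Among the inhibitory transmitter genes, Gad1 fell from dorsal to ventral as most members did, while Gad2, Slc32a1 and Slc6a5 were highest in intermediate pieces. Gad1, which encodes the GABA-synthesising enzyme GAD67, was higher in dorsal than in intermediate pieces by 1.06 ± 0.09 (limma adjusted p = 0.00216). Gad2, which encodes GAD65 (-1.26 ± 0.06), the vesicular transporter Slc32a1 (-0.75 ± 0.09) and the glycine transporter Slc6a5 (-1.94 ± 0.08) were lower in dorsal than in intermediate pieces (limma adjusted p of at most 0.00591). All 4 were higher in intermediate than in ventral pieces, by 1.38 to 2.19, where 19% of all probe sets were higher. In dorsal against ventral pieces, Gad1 (3.25 ± 0.09), Slc32a1 (0.79 ± 0.09) and Gad2 (0.67 ± 0.06) were higher and Slc6a5 lower (-0.56 ± 0.08), with limma adjusted p of at most 0.00443.

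Factors of dorsal excitatory neurons, many of them also of the Lbx1 class, were mostly highest in dorsal pieces, as Lbx1 was. Of 10 tested, 9 were higher and 0 lower in dorsal than in ventral pieces, with a median difference of 4.84. In dorsal against intermediate pieces 9 were higher. The shares of all probe sets called higher in these comparisons were 22.7% and 12.9%. The paired-like homeobox gene Prrxl1 was 107.8-fold higher in dorsal than in ventral pieces, and Ebf3 70.6-fold higher (limma adjusted p of at most 0.000167). Ebf2 averaged 9.87 in dorsal and 2.27 in ventral pieces, and the LIM homeodomain gene Lmx1b 7.77 in dorsal and 2.53 in ventral pieces (limma adjusted p of at most 0.0002). The ventral values of both lay so near the floor that no fold is given. Tlx1 was at the floor on all arrays. Tlx3, counted among the 9, averaged only 2.96 in dorsal pieces and was at the floor in all others. Between intermediate and ventral pieces 6 were higher and 1 lower, Rora (-0.17 ± 0.03, limma adjusted p = 0.00663). Of all probe sets, 19% were higher and 20% lower there.

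**Figure D3:**
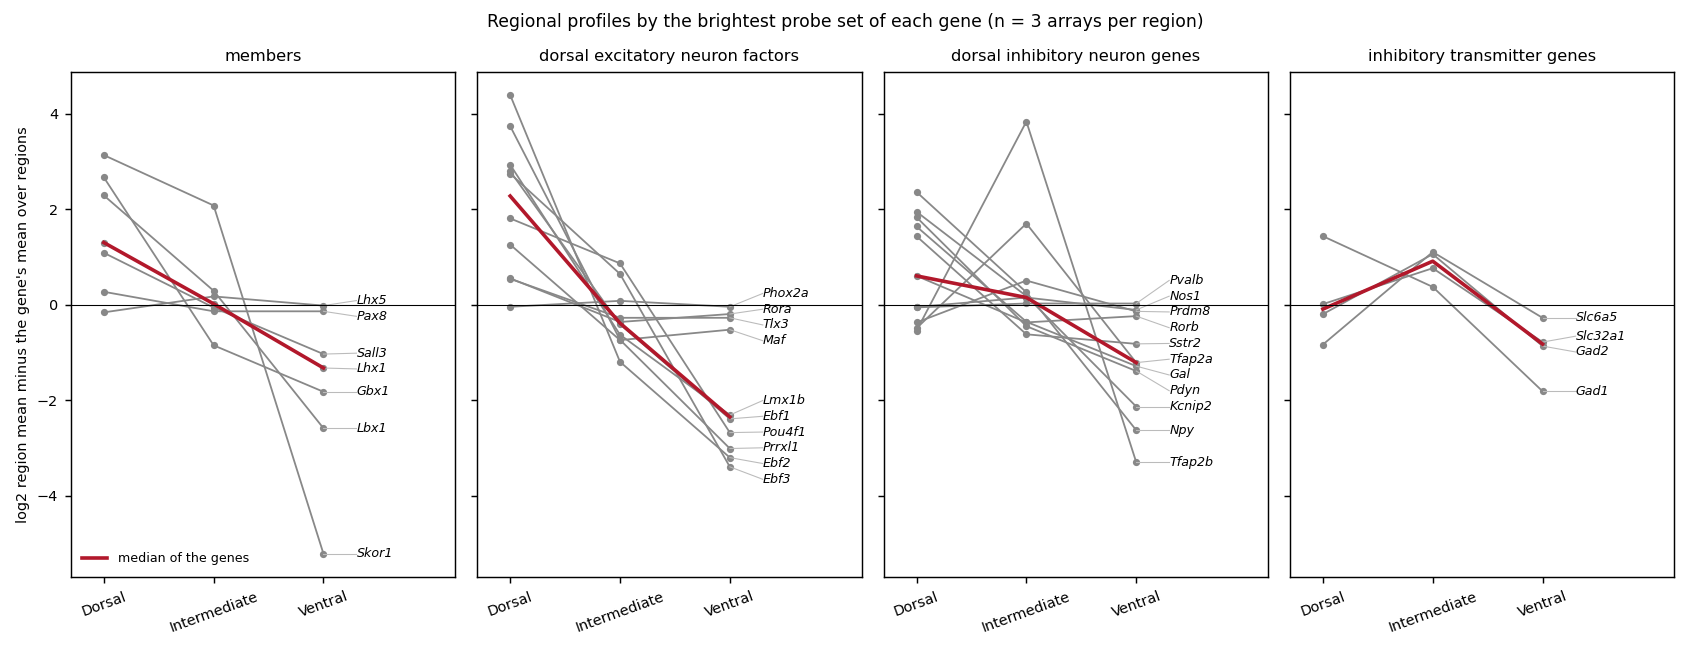
Region means on the log2 scale minus each gene's mean over the 3 regions, by the brightest probe set, for the members, dorsal excitatory factors, dorsal inhibitory neuron genes and inhibitory transmitter genes; red lines are medians of the genes. The member median falls from dorsal to ventral, whereas Gad2, Slc32a1 and Slc6a5 are highest in intermediate pieces and Gad1 is highest in dorsal ones.

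Of 22 paralogs of the members with a probe set, 11 were at the floor on all 9 arrays, among them Pax5, Pax7, Lhx3, Lhx6, Lbx2 and Sall4. Among the 11 tested, 1 was higher and 4 were lower in dorsal than in intermediate pieces. Over all probe sets tested, 12.9% were higher and 11.6% lower in this comparison. Lmx1b was higher (3.56 ± 0.21, limma adjusted p = 0.00101), and Isl1 (-4.53 ± 0.24), Pax6 (-0.47 ± 0.07), Sall2 (-0.13 ± 0.02) and Lhx9, which was at the floor in dorsal pieces and averaged 6.05 in intermediate ones, were lower (limma adjusted p of at most 0.013). Of the same 11, 3 were higher and 3 lower in dorsal than in ventral pieces. The shares over all probe sets tested were 22.7% higher and 22.7% lower. In the fit with 1 probe set per gene, 3472 of 13565 were higher and 3986 lower. Lmx1b (5.24 ± 0.21, with ventral values near the floor), Gbx2 (1.59 ± 0.35, limma adjusted p = 0.0182) and Pax3 (1.52 ± 0.42, limma adjusted p = 0.0382) were higher. Isl1 (-4.51 ± 0.24), Sall1 (-1.30 ± 0.11) and Pax6 (-1.19 ± 0.07) were lower, with limma adjusted p of at most 0.000688. Sall1 and Sall3, of the same family, thus had called differences of opposite sign.

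Progenitor factors act before these genes in development. Of 12 dorsal progenitor factors with a probe set, 6 were at the floor on all arrays, including Ptf1a, a factor required for dorsal inhibitory neurons in the embryo. Of the 6 tested, Pax3 was higher in dorsal than in ventral pieces, and Msx1 (-1.66 ± 0.17), Rbpj (-0.89 ± 0.05) and Olig3 were lower (limma adjusted p of at most 0.00304). Olig3 was at the floor in dorsal pieces and averaged only 2.76 in ventral ones, near the floor. Among ventral interneuron factors, En1, Evx1, Evx2, Gata3 and Sox14 were at the floor on all arrays, and 3 of 8 tested were lower in dorsal than in ventral pieces, led by Foxp2 (-4.59 ± 0.21, limma adjusted p = 0.000145). For both lists, the shares over all probe sets tested in that comparison were 22.7% higher and 22.7% lower.

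By the root mean square difference over the 9 arrays, each probe set being centred on its own mean, 6709 genes were ranked for likeness to Lbx1, Lhx1, Sall3, Skor1, Pax8 and Lhx5. The 6709 genes were those whose brightest probe set had 9 distinct values above the floor. Gbx1 was left out because its ventral values were at the floor. Npy (0.18), Nmbr, which encodes the neuromedin B receptor (0.21), and Mtus2 (0.27) were nearest to Lbx1. Npy averaged 10.91 in dorsal, 8.81 in intermediate and 5.92 in ventral pieces. Tshz3 (0.12), the calcium channel gene Cacna1e (0.14) and the adenylyl cyclase gene Adcy1 (0.15) were nearest to Lhx1. The nearest genes to Sall3 (1441186_at) were Cacng4 (0.16), the co-repressor gene Tle2 (0.18) and Cacng5 (0.18). The ranked genes nearest to Skor1 lay farther off, Ipcef1 (0.78), Serpinb1b (0.82) and Ebf3 (1.36). This measure grows with the range of a member, which was widest for Skor1. Genes with tied or floor values were not ranked, so whether any of them lies closer to Skor1 or another member was not tested. Csgalnact2 (0.05), 2610008E11Rik (0.06) and Hdac2 (0.07) were nearest to Pax8, and Cox7a2, Adgrb1 and Flywch1 (each 0.05) to Lhx5. Pax8 and Lhx5 were low, had identical values on several arrays and varied little, which by itself keeps these distances small.

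Markers of other cell types moved with the regions as well. In dorsal against ventral pieces, 5 of 6 pan-neuronal markers were higher, with a median of 0.73 and the most for Syt1 (2.91 ± 0.06). In the same comparison 6 of 7 oligodendrocyte, 7 of 7 astrocyte and 6 of 7 endothelial and mural markers were lower. Of all probe sets, 22.7% were higher and 22.7% lower. The log2 summed level of the pan-neuronal markers was 15.68 to 15.83 in dorsal, 15.77 to 15.88 in intermediate and 14.90 to 14.93 in ventral pieces. That of the oligodendrocyte markers was 16.51 to 16.58, 16.49 to 16.66 and 16.98 to 17.04 in the same order. The astrocyte markers summed to 16.23 to 16.37, 16.50 to 16.60 and 16.91 to 16.94, and the endothelial and mural markers to 12.43 to 12.71, 12.85 to 12.99 and 13.44 to 13.47. In dorsal against intermediate pieces, 7 of 7 meningeal and fibroblast markers and 6 of 7 microglia markers were higher. Of all probe sets, 12.9% were higher and 11.6% lower in that comparison. The log2 summed level of the meningeal list was 13.65 to 14.77 in dorsal, 11.53 to 11.87 in intermediate and 14.05 to 14.505 in ventral pieces, and that of the microglia list 11.95 to 12.22, 11.40 to 11.66 and 12.21 to 12.36. Both lists were lower in intermediate than in ventral pieces (7 of 7 markers each), while 6 of 6 pan-neuronal markers were higher (median 0.98). Of all probe sets, 19% were higher and 20% lower there. Of 5 Schwann cell and sensory ganglion markers, Pmp2 and Pmp22 were higher in dorsal than in intermediate pieces, while Trpv1, Scn10a and Avil were at the floor throughout. Of 5 ependymal markers 4 were lower in dorsal than in intermediate pieces, and 4 of 5 kidney markers were at the floor. The part of these markers in the results for the members was not tested.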

How the data were processed

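RNA of 9 pieces of mouse spinal cord was measured on Affymetrix arrays. Per the labels' protocols, biotin-labelled cRNA was made from 500 ng of total RNA by in vitro transcription. The authors' deposited values, 1 per probe set and array, were taken as log2 expression because they run from 2.15 to 16.27; their summarising, normalisation and flooring are not given in the sources used here. Of 45037 probe sets, 34945 had 1 gene symbol in the platform annotation, 932 had several and 9160 had none listed. Probe sets at the floor on all arrays (14732) were left out. The remaining 30305 were fitted with limma 3.58.1 in R 4.3.3, with region and animal as fixed terms and eBayes moderation, on 4 residual degrees of freedom. P-values are two-sided, adjusted by Benjamini-Hochberg over 30305 probe sets. Values after ± are standard errors unless marked SD. The fit was tested on simulated data. Pairing comes from the titles, which name the animal. Deviations of same-animal arrays of different regions correlated at -0.05 to 0.18 (mean 0.07, 9 pairs). Those of different animals and regions correlated at -0.16 to 0.13 (mean -0.04, 18 pairs), so the ranges overlap. Identical values, to 1e-06, occurred within a region in 7 of the 11 member probe sets tested, which makes their spread look smaller. Genes of fixed lists are represented by the brightest probe set, and up to 4 called genes per list and comparison with the largest difference are named. Counts of called list genes stand against the shares of all probe sets called in the same comparison. The units differ, since a list gene counts 1 probe set and the shares count every probe set. In the fit with 1 probe set per gene, 13565 entered. Higher and lower were 3472 and 3986 for dorsal minus ventral, 2025 and 2266 for dorsal minus intermediate, and 3302 and 3516 for intermediate minus ventral. The 3 genes of the smallest root mean square difference are named as most like a member; some genes at the floor were named after their values were seen. Members and lists were chosen with earlier results of these data known. Alternatives covered the block, normalisation, filters, moderation and left-out arrays. Figures were drawn with matplotlib 3.10.9 in Python 3.11.15.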

Additional observations from a re-analysis of the deposited data

How the results depend on the processing

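Of 654 comparisons of a member probe set with an alternative, 591 kept their side of the threshold with no change of sign, and 61 lost the call. The other 2 were Pax8 1446561_at, not called in either case, whose difference turned to -0.0538 for dorsal minus intermediate and -0.0300 for dorsal minus ventral under median centring of the arrays. Without the replicate block, the member calls were 9, 9 and 8 for dorsal minus intermediate, dorsal minus ventral and intermediate minus ventral, as in the fit with it, and 7878, 14178 and 12200 probe sets were called in all, against 7419, 13762 and 11830; dropping the block changed no member's call. With 1 probe set per gene, the calls in all were 4291, 7458 and 6818 and the member calls 6, 6 and 5, since fewer features entered. Among probe sets with 9 distinct values above the floor, 4 members remained and all 4 were higher in each comparison. Of all 12092 probe sets in that fit, 3064 were called higher for dorsal minus intermediate. For dorsal minus ventral 4704 were called higher, and for intermediate minus ventral 4400. With only the 2 regions compared, dorsal minus intermediate gave 2914 calls and 5 member calls, the losses being Skor1 (limma adjusted p = 0.0511), Lbx1 1422323_a_at (0.0752), Sall3 1441186_at (0.0873) and Pax8 1418208_at (0.0929); fewer arrays entered that fit. The Lhx5 call for dorsal minus intermediate was lost there (0.173) and without the filter on dim probe sets (0.089), as was that of Gbx1 for intermediate minus ventral (0.126 and 0.0527); Sall3 1441186_at lost the same comparison with only its 2 regions (0.12). Leaving out an animal or array gave 2045 to 6087 calls for dorsal minus intermediate, 9148 to 13136 for dorsal minus ventral and 6654 to 11445 for intermediate minus ventral, with 4 to 9, 8 to 9 and 5 to 8 member calls. Median centring of the arrays changed the share of higher calls for dorsal minus intermediate to 38.0%, against 52.6% as deposited, with 9 member calls in both. The floor limits Pax8, Gbx1 and ventral Skor1, a low level limits Lhx5, and the number of arrays limits all values.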

Other observations

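LIM homeodomain proteins such as Lhx1 act with cofactors that bridge or block their LIM domains. Of 10 cofactor genes tested, 6 were higher and 1 lower in dorsal than in ventral pieces, with a median difference of 0.67. Over all probe sets tested, 22.7% were higher and 22.7% lower. Lmo3, a LIM-only protein (1.88 ± 0.21), Ldb2, which bridges LIM proteins (1.82 ± 0.08), Ssbp2 (1.81 ± 0.03) and Ssbp3 (1.08 ± 0.08), which bind Ldb proteins, were the largest, with limma adjusted p of at most 0.00181. Between dorsal and intermediate pieces 4 were higher, led by Ldb2 (1.62 ± 0.08, limma adjusted p = 0.000733), and Lmo2 was lower (-0.29 ± 0.04, limma adjusted p = 0.00712). Between intermediate and ventral pieces 5 were higher, led by Lmo3 (1.69 ± 0.21, limma adjusted p = 0.00326), and 1 was lower. The shares of all probe sets were 12.9% higher and 11.6% lower for dorsal minus intermediate. For intermediate minus ventral they were 19% and 20%.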
